A study of Mus musculus with 8 samples.

Results

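Of the 39179 mouse genes in the deposited count tables, 78 carry the name of a potassium channel subunit outside the inwardly rectifying (Kir) family. They are all genes whose symbol begins with Kcn and another letter, except the Kir genes (Kcnj) and the Kv channel-interacting proteins (Kcnip). They comprise 14 tandem-pore (K2P) genes, 30 voltage-gated pore genes, 10 silent voltage-gated genes and 12 auxiliary subunit genes. A further 8, Kcnma1, Kcnu1 and the Kcnn and Kcnt genes, were grouped by symbol as calcium- or sodium-activated pore genes. The 4 others are Kcnrg and the opposite-strand transcripts Kcnd3os, Kcnmb4os1 and Kcnmb4os2. RNA was sequenced from spinal cord cells that carry the Aldh1l1-GFP reporter, dissociated with papain and flow sorted from mice of mixed Swiss-Webster strain at postnatal days 12 to 14. The comparison is of 4 libraries from cre-negative animals, whose genotype label is wild-type (control S1, S2, S6 and S7), with 4 libraries from animals with Aldh1l1-cre and both Kir4.1 alleles floxed (cKO S3, S4, S5 and S8). Both groups carry the reporter. The deletion is limited to cells that express the Aldh1l1-driven cre, which marks astrocytes. Where values per library are listed below, they stand in this order, controls first. The labels call the libraries biological replicates, and do not say how many animals each holds or their sex.

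Potassium channels let potassium leave or enter the cell down its electrochemical gradient, and in astrocytes the Kir4.1 channel is known to dominate the resting conductance. K2P channels give a leak conductance that is open at rest. Voltage-gated channels open on depolarisation, the small-conductance (SK) and large-conductance (BK) channels open on a rise of calcium, and the Slack and Slick channels open with intracellular sodium. Auxiliary subunits do not form a pore and alter the gating or trafficking of the pore subunits.

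The ion path of this family is lined by a selectivity filter that reads glycine, tyrosine or phenylalanine, glycine. In nucleotides this is GGNTACGGN or GGNTATGGN for the tyrosine form and GGNTTCGGN or GGNTTTGGN for the phenylalanine form. The letters were searched in frame on the coding strand of 1 coding sequence per gene of GENCODE mouse release 21 (GRCm38). All 62 pore and silent genes held at least 1 match, while 0 of 12 auxiliary genes and 0 of 1 other coding gene did. Among K2P genes, which have a pair of pore loops in each protein, 11 of 14 held 2 matches. Kcnk1, Kcnk6 and Kcnk7 held 1, and the search does not cover other filter letters. Of all 21630 coding sequences read, 13.3% held at least 1 match and 2.24% at least 2, so the letters are short enough to occur elsewhere. The stretches below are from pore genes that separate the groups in the counts, with the 9 filter bases in capitals. They show that the voltage-gated Kcnh6 and the sodium-activated Kcnt1 and Kcnt2 carry the phenylalanine form, and Kcna2 the tyrosine form.
Kcnh6, chr11:106019058-106019114, plus strand, GRCm38: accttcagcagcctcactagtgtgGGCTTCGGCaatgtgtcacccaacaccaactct
Kcnt1, chr2:25894349-25894405, plus strand, GRCm38: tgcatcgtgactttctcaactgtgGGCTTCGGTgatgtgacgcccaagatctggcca
Kcnt2, chr1:140425260-140425316, plus strand, GRCm38: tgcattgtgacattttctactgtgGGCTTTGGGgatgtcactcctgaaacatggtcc
Kcna2, chr3:107105206-107105262, plus strand, GRCm38: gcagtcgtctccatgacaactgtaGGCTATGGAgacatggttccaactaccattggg

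Gene reads ranged from 13892736 (control S2) to 25065686 (cKO S8) per library. Kcnj10, which encodes Kir4.1, had 18642, 31673, 33798 and 40888 counts in controls and 698, 599, 660 and 828 in cKO, so no label was contradicted by the targeted gene. CPM, the counts scaled to library depth, summed over 11 astrocyte markers lay between 17677 and 26354 in controls and between 20979 and 25549 in cKO. Markers of other cells were far lower but present: over 6 oligodendrocyte precursor (OPC) markers the sum ranged from 308 to 1062 in controls and from 214 to 454 in cKO, and over 12 neuronal markers from 63.4 to 91.5 and from 39.98 to 77.2. The 10 oligodendrocyte markers summed to 1332 to 2534 in controls and 790.2 to 2073 in cKO. Smaller sums were found in controls and cKO for 9 microglial markers (28.0 to 45.6 and 28.5 to 60.98 CPM), 8 endothelial markers (43.3 to 70.03 and 23.3 to 56.5) and 7 mural markers (58.0 to 70.98 and 51.3 to 58.99). The ranges were 124 to 516 and 78.8 to 165 CPM for 5 fibroblast markers, 6.91 to 29.4 and 8.35 to 22.1 for 4 ependymal markers, and at most 0.510 and 0.984 for 3 Schwann cell markers. No marker was at 0 in all libraries, and 2 astrocyte markers but 0 of the other lists passed edgeR's adjusted threshold. In sorted cells, fewer cells of a type and less RNA per cell cannot be told apart.

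Most members were expressed at a low level. In control astrocytes 32 of 78 had a mean deposited FPKM (fragments scaled to gene length and library depth) of at least 1, and 11 of at least 10. In cKO the numbers were 29 and 13. No reads at all were counted for 7 members, Kcna7, Kcne3, Kcng1, Kcnk15, Kcnk16, Kcnk18 and Kcnv2. The K2P gene Kcnk1, which encodes the weakly rectifying leak channel TWIK1, was the highest, with a control mean of 257 FPKM ± 131 (SD, n = 4) and a cKO mean of 234 FPKM ± 72.9 (SD, n = 4). It held 35.2% of the summed member FPKM in controls and 30.9% in cKO.

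Next in control FPKM came Kcnn2, the SK2 channel, at 98.7 ± 18.0 (SD, n = 4), and Kcnt1, the sodium-activated Slack channel, at 59.2 ± 20.6 (SD, n = 4). The fast voltage-gated channel gene Kcnc4 was at 47.5 ± 8.20 and the auxiliary gene Kcne1l at 39.5 ± 7.19 (SD, n = 4 each). The neighbours Kcnt1 and Kcnc4, and Kcnc4 and Kcne1l, differed by less than 1 SD of the higher gene. These 5 genes held 70.7% of the summed FPKM in controls and 70.3% in cKO. The order below Kcnk1 and the shares of the sum, that of Kcnk1 included, depended on the length assigned to each gene. The shares hold for the deposited FPKM only. With lengths taken as the union of annotated exons, Kcnk1 stayed first at 179 RPKM, the same scale computed from the counts, in controls, while Kcnc4 followed at 27.9 and then Kcne1l at 24.98, with Kcnn2 at rank 5 (17.9) and Kcnt1 at rank 8 (7.45).

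**Figure D1:**
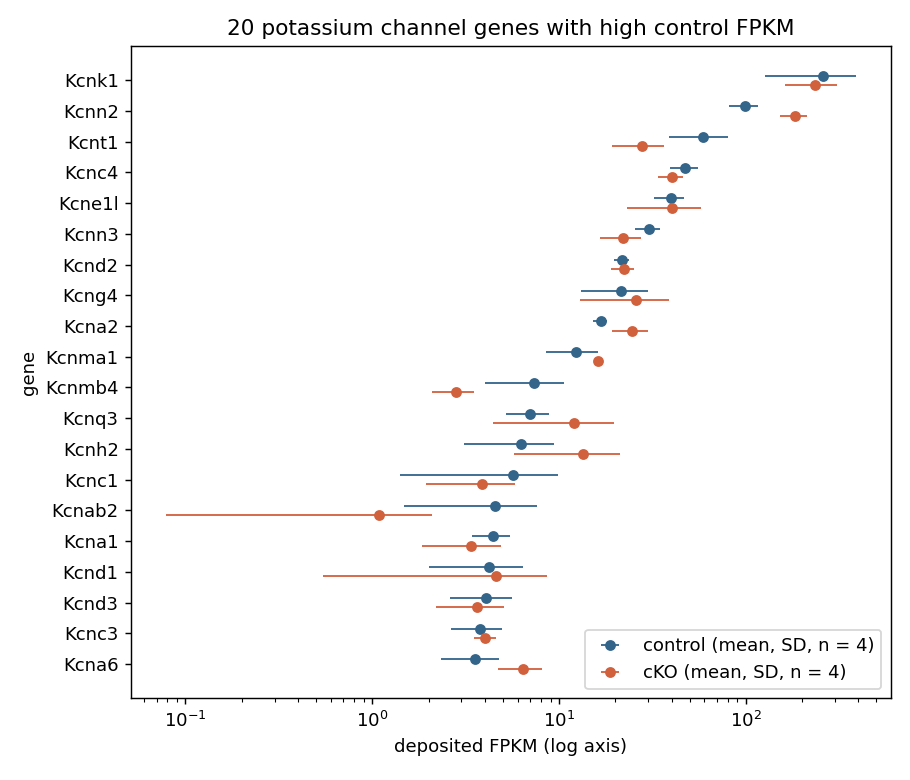
Deposited FPKM (horizontal, log axis) of 20 members with a high control mean, as mean and SD of 4 libraries in each group. Kcnk1 stands at 257 in controls and 234 in cKO, Kcnn2 at 98.7 and 183, and Kcnt1 at 59.2 and 27.7.

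The design sets astrocytes without Kir4.1 against astrocytes with it, and for these genes it shows whether other potassium channel transcripts differ between them. Enough counts for the test were present in 40 of 78 members. In the quasi-likelihood test of edgeR, adjusted over 14757 genes by Benjamini-Hochberg, 0 of the 40 had an adjusted p under 0.05, against 0.318% of all genes (47, of which 30, or 0.203%, were higher and 17, or 0.115%, lower in cKO). With library totals in place of TMM scaling, 62 genes passed (48 higher and 14 lower), and the median log2 fold change of all genes moved from −0.0169 to 0.0914. Without control S1, S2 or S6, 30, 14 and 16 genes passed, and without cKO S4, S5 or S8, 4, 24 and 28. At an unadjusted p under 0.05 there were 9 members, against 9.81% of all genes. Of these, 4 had higher values in cKO (background 5.03%), among them Kcnn2, Kcnh6 and Kcna2, and 5 had lower values (background 4.77%), namely Kcnt1, Kcnt2, Kcnmb4, Kcnab2 and Kcnk10. The median log2 fold change was −0.000175 over the members and −0.0169 over all genes, with 20 members above and 20 below 0. Without cKO S5 the median was −0.237 over the 46 members then tested and −0.025 over all genes.

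DESeq2, another count test, had an adjusted p under 0.05 for 2.29% of all genes and for 6 of the 50 members it adjusted, among them Kcnh6, Kcnn2, Kcnt1, Kcnt2 and Kcnh1. The authors' deposited table lists 4 of its 29 adjusted members under 0.05, among them Kcnh6, Kcnn2 and Kcnt1, where the share over all genes in the authors' deposited table is 2.87%. limma-voom gave 0 of 40, against 0.325% of all genes, with 8 at an unadjusted p under 0.05, against 10.6% of all genes. limma on the deposited FPKM also gave 0 of 40, with backgrounds of 0.0542% and 0.0474% for pseudocounts of 0.1 and 1. Library totals gave Kcnn2 alone (background 0.42%), as did a filter of at least 10 counts in every library (0.71%), while testing every gene with at least 1 read gave Kcnh6 and Kcnn2 (0.359%). Without control S7 Kcnh6 alone passed (0.264%). Leaving out any other library gave 0 members, with backgrounds of 0.0907% for control S2, 0.106% for control S6, 0.294% for cKO S3, 0.0264% for cKO S4 and 0.155% to 0.194% for the rest. For 7 of the 40 tested members no control library fell within the cKO range or the reverse, against 6.34% of all genes tested. In 4 the cKO libraries were higher, against 3.39%, and in 3 lower, against 2.94%. Of the 9 members, 6 kept an unadjusted p under 0.05 whichever of the 8 libraries was left out. Among them were Kcna2, Kcnh6, Kcnn2, Kcnt1 and Kcnt2. Of the 1447 genes in all at that threshold, 571 (39.5%) did so.

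**Figure D2:**
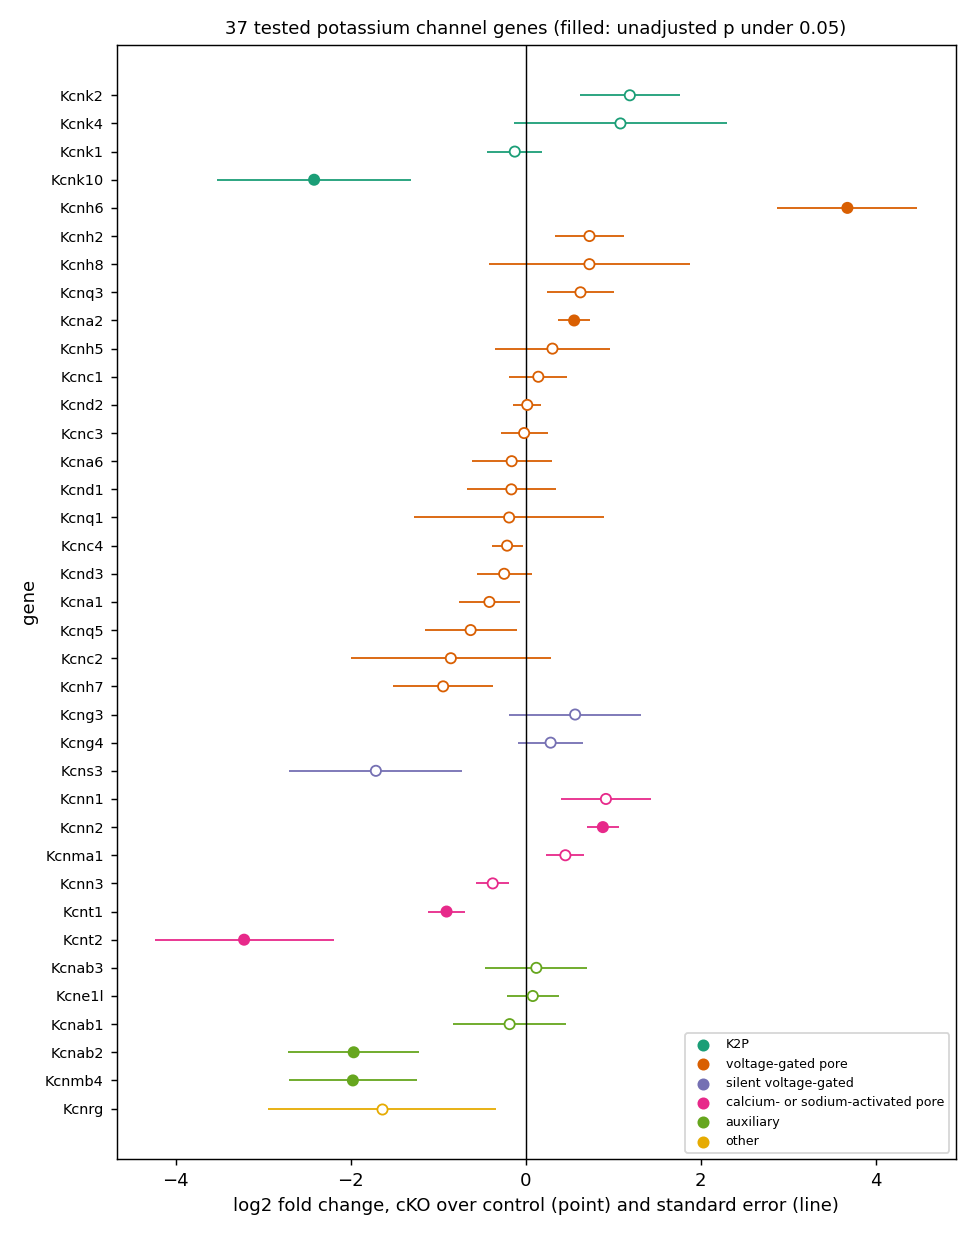
Log2 fold change of cKO over control (horizontal) for 37 of the 40 tested members, with the standard error as a line, coloured by channel group and filled where the unadjusted p was under 0.05. Kcnh6 lies farthest to the right at 3.67 and Kcnt2 farthest to the left at −3.22, with 17 of the plotted members above 0 and 20 below.

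Calcium- and sodium-activated pore genes gave 1 member with higher and 2 with lower values at an unadjusted p under 0.05, of 6 tested. Over all genes tested, 5.03% were higher and 4.77% lower at this threshold. Kcnn2 encodes the SK2 channel, which opens on calcium bound to calmodulin. It was at 124, 151, 100.2 and 159 CPM in controls and at 195, 279, 236 and 273 CPM in cKO. Every cKO library lay above every control library. The ratio was 1.84, a log2 fold change of 0.88 with a standard error of 0.18, and edgeR's adjusted p was 0.0771. The adjusted p was 0.0326 with library totals, 0.0403 and 0.0394 with the looser and stricter count filters and 0.00296 with DESeq2. Across the fits that left out 1 library it was 0.0722 to 0.286. Kcnn2 lies on chromosome 18, from 45268860 to 45686024 on GRCm38, and its exons overlap opposite-strand transcripts, so a share of its reads is uncertain where strand use is not stated.

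The related SK genes gave other values. Kcnn3 (SK3) was at 54.0, 47.0, 48.4 and 65.6 CPM in the controls and at 39.5, 41.0, 34.7 and 50.4 CPM in cKO. Its groups overlapped, with a log2 fold change of −0.38 ± 0.19 (SE) and an edgeR adjusted p of 0.544. Kcnn1 (SK1) had a log2 fold change of 0.92 with a standard error of 0.52, and its highest library was cKO S5 at 15.4 CPM. Kcnn4, the intermediate-conductance channel, had 2 reads in all, both in cKO S3. Whether the fold changes of these genes differ from one another was not tested.

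The genes of both sodium-activated channels had lower values in cKO. Kcnt1 was at 71.9, 91.4, 70.1 and 49.6 CPM in controls and at 42.7, 31.9, 42.1 and 34.4 CPM in cKO. The lowest control library, S7, was still above the highest cKO library. This gave −0.90 ± 0.21 (SE) on the log2 scale, with an adjusted p of 0.102 with edgeR and 0.00634 with DESeq2. Kcnt1 lies on chromosome 2, from 25863734 to 25918273, and no annotated exon of another gene overlaps its exons. The OPC marker sum was also lower in cKO, at 214 to 454 CPM beside 308 to 1062 CPM in controls, with overlapping ranges. Within controls it was 441, 308, 679 and 1062 CPM in S1, S2, S6 and S7. Kcnt1 was highest in S2 and lowest in S7 among the controls, and Kcnt2 highest in S1 and lowest in S6. The part of OPC RNA in the values of Kcnt1 and Kcnt2 was not tested.

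Kcnt2, the Slick channel, was at a far lower level, with 43, 29, 36 and 56 counts in the controls and 4, 16, 1 and 0 in cKO. In CPM this was 2.73, 2.11, 1.98 and 2.65 against 0.204, 0.726, 0.0570 and 0. Kcnt2 lies on chromosome 1, from 140246158 to 140612067, and overlaps an exon of 4930590L20Rik on the opposite strand. The controls were close together and all above the cKO libraries. The log2 fold change of −3.22 had a standard error of 1.02, with an adjusted p of 0.279 with edgeR and 0.0271 with DESeq2. The low counts in cKO make the size of this ratio uncertain, and it ranged from −4.69 to −0.97 over the alternatives. The first of these was without cKO S4, and the second was with deposited FPKM and a pseudocount of 1, which shrinks the change of a low gene. Kcnma1, the BK channel, was at 54.3, 37.1, 46.6 and 26.9 CPM in controls and 51.9, 57.0, 54.1 and 62.5 CPM in cKO, with overlapping groups, a log2 fold change of 0.45 ± 0.22 (SE) and an edgeR adjusted p of 0.522.

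Voltage-gated pore genes gave 3 of 21 tested members with higher values and 0 with lower values at an unadjusted p under 0.05. The shares over all genes tested were 5.03% and 4.77%. The median log2 fold change of the voltage-gated pore genes was 0.0176, beside −0.0169 over all genes. Kcnh6 encodes a channel of the ERG type, relatives of the cardiac repolarising channel encoded by Kcnh2. It had 18, 18, 8 and 0 counts in controls and 157, 269, 160 and 163 counts in cKO. In CPM the controls were at 1.141, 1.31, 0.439 and 0 and the cKO libraries at 8.02, 12.2, 9.12 and 6.98. All cKO libraries were above all controls, and the ratio was 12.8, the largest among tested members. On the log2 scale this was 3.67 ± 0.80 (SE), with 4.86 by limma-voom and 1.88 on the log2(FPKM + 1) scale, which understates the change of a low gene.

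For Kcnh6 the adjusted p was 0.0866 with edgeR, 0.0251 without control S7, 0.0299 when every gene with at least 1 read was tested and 3.02e-05 with DESeq2. In the authors' deposited table the adjusted p is 7.6e-05. Across the other fits that left out 1 library, edgeR's adjusted p reached 0.324. Kcnh6 lies on chromosome 11, from 106008124 to 106034549, with no exon overlap. In deposited FPKM the controls were at 0.509 ± 0.696 (SD, n = 4) and the cKO libraries at 4.27 ± 1.19 (SD, n = 4), so in cKO it remained far below Kcnk1 and Kcnn2 per length. Kcnh2 itself was at 2.66 to 6.81 CPM in controls and 5.98 to 11.4 CPM in cKO with overlapping groups, and its edgeR adjusted p was 0.578.

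Kcnq3, a subunit of the M-type current, a slow conductance active near rest, was at 38.7, 45.6, 55.8 and 37.6 CPM in controls and at 76.0, 20.1, 119.5 and 58.6 CPM in cKO. Its cKO libraries spread over the whole control range, with an edgeR adjusted p of 0.631.

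Kcna2, a low-threshold delayed rectifier of the Shaker family, was at 40.6, 49.0, 49.3 and 45.5 CPM in controls and at 57.3, 66.5, 88.3 and 58.4 CPM in cKO. Kcna2 lies on chromosome 3, from 107101146 to 107115005, with no exon overlap. No library overlapped between groups, and the controls varied by only 8.80% of their mean (SD over mean). Its log2 fold change was 0.55 ± 0.18 (SE), and the adjusted p was 0.312 with edgeR and 0.133 with DESeq2. Its neighbour in the family Kcna1 was at 33.4, 22.5, 40.8 and 30.3 CPM in controls and 25.8, 27.8, 33.3 and 8.43 CPM in cKO, with overlapping groups and a log2 fold change of −0.42 ± 0.35 (SE).

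The groups overlapped for the A-type and fast channel genes. Kcnd2, an A-type channel that inactivates rapidly, was at 83.3, 87.1, 101 and 100.4 CPM in controls and at 75.5, 92.9, 104 and 104 CPM in cKO. Its log2 fold change was 0.02 ± 0.16 (SE), the smallest standard error among the tested members. Kcnd3 had a log2 fold change of −0.25 ± 0.31 (SE). Kcnc4 was at 122, 95.2, 82.2 and 110.2 CPM in controls and 84.9, 105, 91.5 and 71.4 CPM in cKO, with a log2 fold change of −0.21 ± 0.18 (SE). edgeR's adjusted p were 0.983, 0.852 and 0.750, and a value that misses the threshold does not show equal expression.

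**Figure D3:**
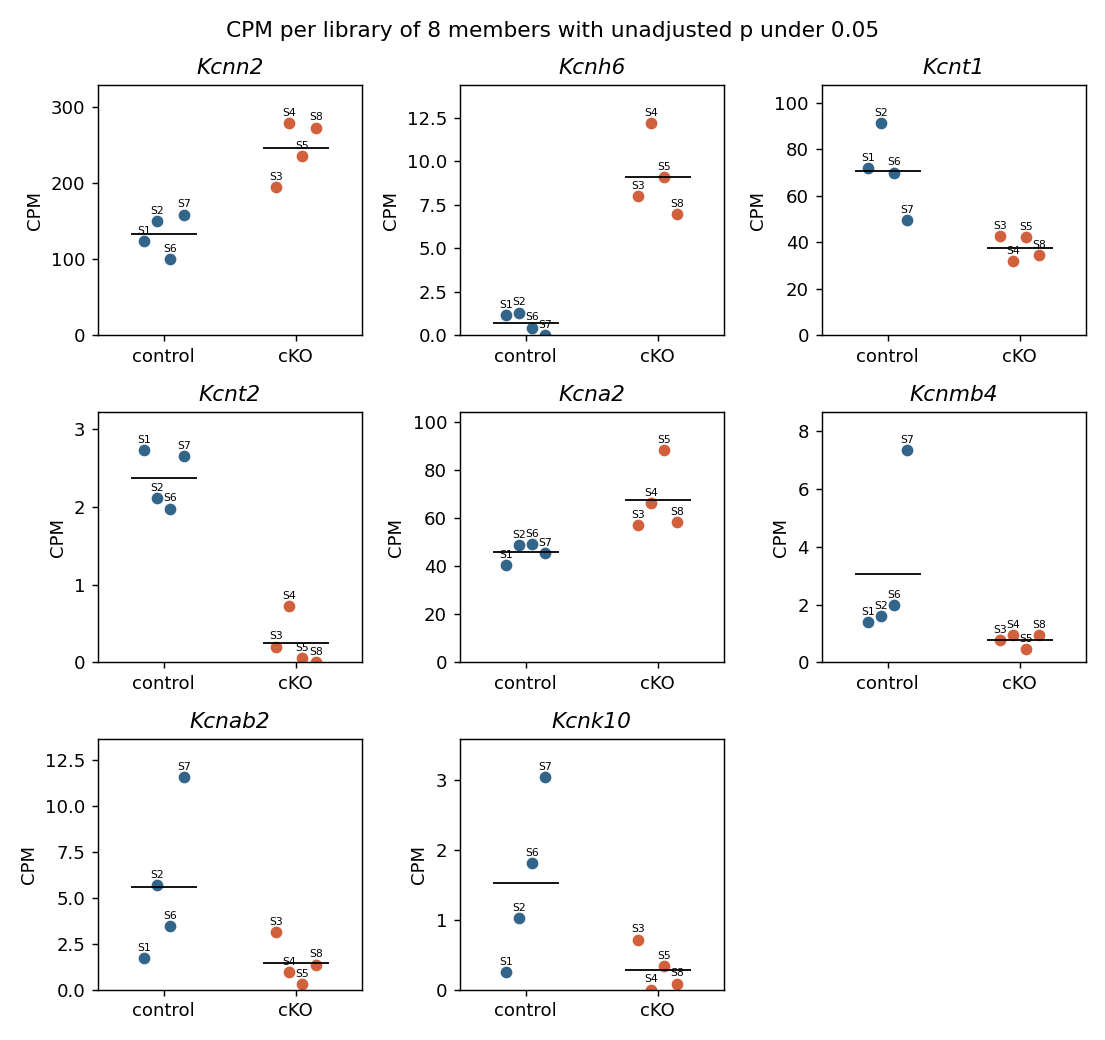
CPM per library (vertical, linear from 0) of 8 of the 9 members with an unadjusted p under 0.05, controls on the left and cKO on the right of each panel, with the library number beside each point and the group mean as a line. Kcnn2, Kcnh6, Kcnt1, Kcnt2, Kcna2 and Kcnmb4 show no overlap between groups, while Kcnab2 and Kcnk10 overlap and, with Kcnmb4, are highest in control S7.

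Only 4 of 14 K2P genes had enough counts for the test. Of these, 1 had lower values at an unadjusted p under 0.05, against 4.77% of all genes tested. Kcnk1 was at 693, 384, 273 and 248 CPM in controls and at 261, 443, 489 and 272 CPM in cKO. Kcnk1 lies on chromosome 8, from 125995170 to 126030685, and overlaps an exon of Gm45875 on the opposite strand. Control S1 was the highest library, and the groups overlapped. The log2 fold change was −0.12 ± 0.31 (SE) with an edgeR adjusted p of 0.933, and without control S1 it was 0.28. Kcnk2 encodes TREK1, a leak channel opened by stretch and lipids. It was at 2.03, 2.26, 3.30 and 4.17 CPM in controls and at 5.77, 10.2, 1.42 and 9.46 CPM in cKO. In 3 of 4 cKO libraries it exceeded all controls, while cKO S5 lay below them. Its log2 fold change was 1.19 ± 0.57 (SE) with an edgeR adjusted p of 0.523.

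Kcnk10 (TREK2) was at 0.254, 1.02, 1.81 and 3.03 CPM in controls and at 0.715, 0, 0.342 and 0.0856 CPM in cKO. The groups overlapped, the highest value was in control S7, and the log2 fold change was −2.42 ± 1.11 (SE) with an edgeR adjusted p of 0.505. It was −3.40 without cKO S3, −1.84 without control S7 and −0.55 on the log2(FPKM + 1) scale. Its unadjusted p of 0.0487 was above 0.05 in 6 of the 8 fits that left out 1 library. The remaining 10 K2P genes, among them the acid-sensitive Kcnk3 and Kcnk9 and the microglial Kcnk13, were each at a mean of 0.670 CPM or less in both groups.

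Auxiliary genes gave 2 of 5 tested members with lower values at an unadjusted p under 0.05, against 4.77% of all genes tested. Kcnmb4, the BK beta subunit typical of brain, was at 1.39, 1.60, 1.98 and 7.34 CPM in controls and at 0.766, 0.953, 0.456 and 0.942 CPM in cKO. The groups did not overlap, but control S7 stood far above the other controls. The log2 fold change was −1.97 ± 0.73 (SE), with an edgeR adjusted p of 0.377, and −1.07 without control S7. Kcnab2, a cytoplasmic beta subunit of Shaker-type channels, was at 1.71, 5.68, 3.46 and 11.6 CPM in controls and at 3.12, 0.953, 0.285 and 1.37 CPM in cKO, again highest in control S7. Its log2 fold change was −1.97 ± 0.75 (SE) with an edgeR adjusted p of 0.399, and it was −1.33 without control S7 and −2.67 without cKO S3. Without control S7 the unadjusted p of Kcnmb4, Kcnab2 and Kcnk10 was no longer under 0.05, nor was that of Kcnab2 without cKO S4. Kcnmb4 lies on chromosome 10, from 116417861 to 116473878, and overlaps the exons of Kcnmb4os1 and Kcnmb4os2 on the opposite strand, and Kcnab2, on chromosome 4 from 152390742 to 152477871, overlaps Gm16334 on the same strand, so part of their reads is uncertain. Control S7 also held the highest sum of OPC markers, 1062 CPM, beside 308 to 679 in the other controls. Its sums of oligodendrocyte markers (2534 CPM) and neuronal markers (91.5 CPM) were likewise the highest of all 8 libraries. The other controls were at 1332 to 2118 and 63.4 to 80.1 CPM for these markers. The part of OPC, oligodendrocyte or neuronal RNA in these 3 genes was not tested.

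Kcne1l, also known as Kcne5, is a single-span subunit that alters Kcnq channels. It was at 32.5, 35.6, 36.6 and 49.4 CPM in controls and at 26.6, 23.6, 59.4 and 53.5 CPM in cKO, so the cKO libraries lay on both sides of the controls. The other tested auxiliary genes Kcnab1 and Kcnab3 were below 6 CPM in every library, with edgeR adjusted p of 0.954 and 0.969. The silent genes encode proteins that form channels only together with other voltage-gated subunits. Against 9.81% of all genes tested, 0 of their 3 tested members had an unadjusted p under 0.05. Among them Kcng4 was at 28.8 to 97.1 CPM and Kcng3 at 0.604 to 15.8 CPM, highest in control S7, while Kcns3 had a log2 fold change of −1.71 ± 0.99 (SE).

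The 38 members that were not tested had few reads or reads in few libraries. Kcnh1, which encodes an EAG channel, had 4, 12, 15 and 190 counts in controls and 5, 4, 2 and 0 in cKO, with most of its reads in control S7. DESeq2 was not run without that library, and the authors' deposited table gives no p-value for Kcnh1. Kcna5 had 0, 0, 50 and 285 counts in controls and 9, 14, 0 and 7 in cKO, and was likewise highest in control S7. Kcnf1, a silent subunit, had 8, 0, 3 and 4 counts in controls and 33, 22, 14 and 12 in cKO. In CPM its highest control, S1 at 0.507, was just below its lowest cKO library, S8 at 0.514. Without control S1 it passed the filter, and edgeR's unadjusted p was under 0.05. With all 8 libraries and every gene with at least 1 read tested, edgeR's unadjusted p was not under 0.05, while that of DESeq2 was. The opposite-strand transcripts Kcnd3os, Kcnmb4os1 and Kcnmb4os2 had at most 40 reads each over all libraries. Reads from exons they share with channel genes cannot be assigned to either gene where strand was not used.

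Of the 40 tested members, 12 (30%) were highest in cKO S5 and 8 (20%) in control S7, where the shares over all tested genes were 20.6% and 20.0%. Each of the other 6 libraries was highest for 1 to 4 members. The same 2 libraries thus led over all genes. Those highest in cKO S5 include Kcnq3, Kcnh8, Kcnn1 and Kcnc1. cKO S5 had the highest neuronal marker sum of the cKO libraries, 77.2 CPM beside 39.98 to 45.6 in the other 3. Controls S6 and S7 had higher neuronal sums, 80.1 and 91.5 CPM, and lower values of these members than cKO S5. The oligodendrocyte sum was also highest in cKO S5 among the cKO libraries, 2073 CPM beside 790 to 1688. The part of neuronal or oligodendrocyte RNA in these members was not tested.

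**Figure D4:**
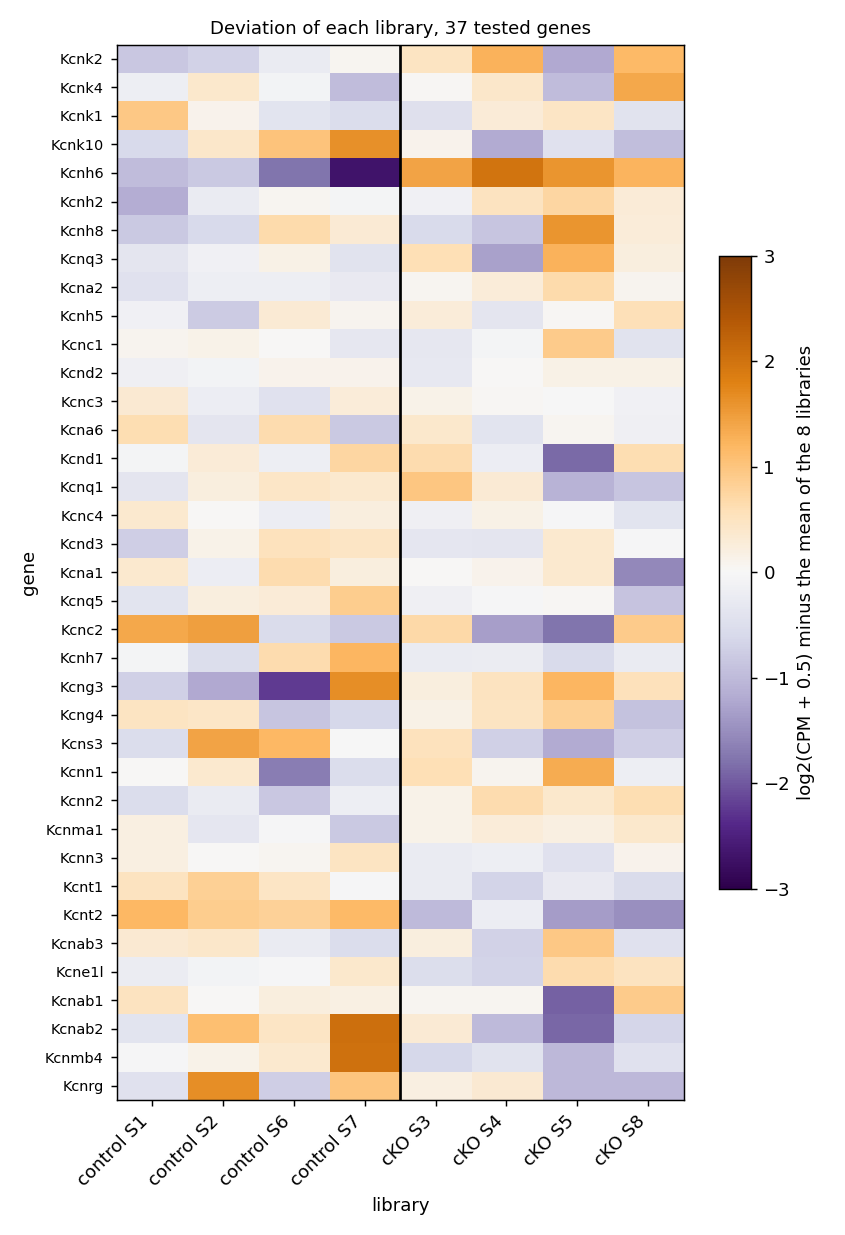
Deviation of each library from the mean of all 8, as log2(CPM + 0.5), for 37 of the 40 tested members (rows, grouped by channel type) with controls left of the line and cKO right of it, and colours saturating at 3 log2 units either way. Kcnh6 and Kcnt2 differ between the sides in all libraries, whereas Kcnmb4, Kcnab2 and Kcnk10 are highest in control S7 and Kcnh8 and Kcnq3 in cKO S5.

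Proteins that bind or cluster these channels, or are otherwise coupled to them, were taken from a list of 24 genes, of which 18 were tested. By edgeR 0 had an adjusted p under 0.05 in either direction, against 0.318% of all genes. At an unadjusted p under 0.05, 1 had higher and 3 lower values, where the shares over all genes were 5.03% and 4.77%. Kcnip1, a calcium-binding subunit of A-type channels, was at 5.96, 2.04, 2.75 and 3.36 CPM in controls and 10.6, 9.80, 4.79 and 16.1 CPM in cKO, with overlapping groups. Dpp6, the A-type auxiliary subunit that partners Kcnd2, was at 144, 103, 115 and 101 CPM in controls and 70.7, 78.9, 82.2 and 85.99 CPM in cKO. Its groups did not overlap, and the log2 fold change was −0.54 ± 0.16 (SE) with an edgeR adjusted p of 0.252. The ligand receptor Adam23 and the secreted Lgi3 were the other 2 with lower values. Kcnip1, Dpp6, Adam23 and Lgi3 were chosen after their values were seen.

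Of 14 other genes of potassium handling, all tested, 2 were higher and 1 lower at an adjusted p under 0.05. Kcnj10, the targeted gene itself, was the lower one. Over all genes tested, 0.203% were higher and 0.115% lower at this threshold. Aqp4, the astrocyte water channel, rose by 1.09 on the log2 scale, from 2454, 1993, 1588 and 1994 CPM in controls to 3373, 5268, 4113 and 4389.6 CPM in cKO, with an edgeR adjusted p of 0.0243. Every cKO library lay above every control library. Atp1b2, a glial subunit of the sodium pump, had a log2 fold change of −0.043.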

How the data were processed

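The 8 libraries were read from the deposited HTSeq counts per gene, on GRCm38 per the submitters' processing notes, which also name FastQC 0.11.4, TopHat2 2.0.11, Bowtie2 2.2.3, HTSeq 0.6.1p1, DESeq2 1.14.1, Cufflinks 2.2.1 and Cuffnorm. The annotation release and strand setting are not given in the sources used here. The summary lines that name no gene, 56.4% to 61.7% of each library's total, were left out. FPKM values are the authors' deposited Cuffnorm output. Only 3 of the 8 FPKM columns followed the count library of the same name, although all 8 followed a library of the same group, so FPKM was used as group means. The authors' deposited DESeq2 table holds mean counts scaled by size factors (signal), log2 fold changes, test statistics (score) and p-values, and was quoted as deposited.

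Genes were filtered with filterByExpr, scaled by TMM and tested with edgeR 4.0.16 (quasi-likelihood, 4 control against 4 cKO libraries, Benjamini-Hochberg adjustment over all genes tested, threshold 0.05) in R 4.3.3. CPM values use TMM-scaled library sizes. DESeq2 1.42.0, limma-voom and limma 3.58.1 on log2(FPKM + 0.1) and log2(FPKM + 1), other scalings, count filters and leaving out each library were alternatives. The scripts were tested on simulated data. Values per library are given for up to 3 members of a channel group and direction with the lowest unadjusted p under 0.05, for the 5 highest in control FPKM, and for a list of glial and neuronal channel genes; further members were named after their values were seen. Some genes that enter the counts are not reported here by name. Members, gene lists and rules were chosen with earlier results of these data known. A p-value here sets the difference between groups against the spread between libraries, and the number of animals in each library is not given. An exact permutation test of 4 against 4 cannot go below 0.0286.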

Additional observations from a re-analysis of the deposited data

Results flagged for a closer look

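Kcnmb4, the BK beta subunit gene, stood apart in control S7 at 7.342 CPM, far from the other 3 controls. In all, 36 sets of 4 libraries from 18 named members were examined, in which chance would give about 1.8 such cases, and 1 was found. Other members were not examined in this way. Among those, Kcng3 was at 15.8 CPM in control S7 and at 0.604 to 2.66 CPM in the other controls. Kcnh1 was at 9.00 CPM in control S7 and at 0.254 to 0.873 CPM in the other controls.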

How the results depend on the processing

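The genes passing edgeR's adjusted threshold numbered 47. They numbered 87 with at least 1 count in any library, 84 with at least 10 counts in every library, 28 with the Xist level as covariate, 378 with DESeq2 and between 4 and 45 when 1 library was left out. The members passing numbered 0. They numbered 1 with library totals, 2 with at least 1 count in any library, 1 with at least 10 counts in every library, 6 with DESeq2 and between 0 and 1 when 1 library was left out. Over 18 named members and 318 alternative values, 297 kept their direction and their side of the threshold, 9 newly passed it and 12 changed sign. Kcne1l was at −0.044 with limma-voom, −0.058 with log2(FPKM + 0.1) and −0.055 with log2(FPKM + 1), and between −0.15 and 0.27 when 1 library was left out. The same ranges were −0.032 to 0.12 for Kcnd2, −0.29 to 0.28 for Kcnk1 and −0.69 to 0.19 for Kcnab1. The cause of these changes was not tested. No paired analysis was made, because the labels number the libraries in 1 run over both groups and name no pairs. Low counts limit the size of the Kcnh6 and Kcnt2 ratios.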
